A study of Mus musculus with 20 samples.

Results

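The genes of hepatic glucose use and glycogen turnover examined here are the 9 symbols Slc2a2, Gckr, Pfkl, Pfkfb1, Pklr, Gys2, Pygl, Ppp1r3b and Ppp1r3c, a set drawn up by gene function with earlier results of these data known. The platform annotation assigned 1 probe set each to 8 of them, out of 19505 genes with a probe set, and all 8 were among the 11703 genes tested. Pfkfb1, whose product sets the level of a regulator of phosphofructokinase, had no assigned probe set and was not analysed here. The data are log2 signals from 20 arrays, 1 for the liver of each of 20 male ob/ob mice. These mice make no leptin and grow obese. All groups therefore share the leptin deficiency, and no lean mice were examined. The 4 groups of 5 mice were labelled filter air, drinking metformin, PM2.5 exposure, and PM2.5 exposure with drinking metformin, the last called the combined group here. PM2.5 is fine airborne particulate matter, breathed in a chamber for 6 hours a day over 2 weeks, and metformin is a glucose-lowering drug given here in the drinking water. Its dose, the air given to the metformin group and the age of the mice are not given in the sources used here. Mouse numbers only name the mice of a group, by accession order, and pair none across groups.

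Glucose enters the hepatocyte through GLUT2, the product of Slc2a2, and is trapped there by phosphorylation, a step that the protein of Gckr restrains when glucose is low. Phosphofructokinase (Pfkl is its liver form) and pyruvate kinase (Pklr is its liver and red cell gene) drive the committed and the final steps of glycolysis. Glycogen is built by glycogen synthase (Gys2, liver form) and broken down by glycogen phosphorylase (Pygl, liver form). Ppp1r3b and Ppp1r3c encode glycogen-targeting subunits of protein phosphatase 1, which bring the phosphatase to the glycogen particle, where it activates the synthase. Transcription of Pklr is known to respond to carbohydrate through ChREBP, the product of Mlxipl, and its partner Mlx, which bind a paired E-box called the carbohydrate response element (ChoRE).

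The members with the largest differences were Pklr and Ppp1r3c, and the sequence before their annotated start sites is shown for that reason, read 5′ to 3′ from the RefSeq table of build GRCm38.p6. For Pklr it is the window before the second of the 2 annotated starts, chr3:89136373-89136622 on the + strand, with the match to the ChoRE pattern in capitals. For Ppp1r3c it is chr19:36736605-36736854 on the - strand, with the E-box CACGTG in capitals.
Pklr: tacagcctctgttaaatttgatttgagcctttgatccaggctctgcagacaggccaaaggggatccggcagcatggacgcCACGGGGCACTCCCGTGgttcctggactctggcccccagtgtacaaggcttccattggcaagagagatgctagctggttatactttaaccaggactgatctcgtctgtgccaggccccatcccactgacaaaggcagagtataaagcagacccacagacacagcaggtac
Ppp1r3c: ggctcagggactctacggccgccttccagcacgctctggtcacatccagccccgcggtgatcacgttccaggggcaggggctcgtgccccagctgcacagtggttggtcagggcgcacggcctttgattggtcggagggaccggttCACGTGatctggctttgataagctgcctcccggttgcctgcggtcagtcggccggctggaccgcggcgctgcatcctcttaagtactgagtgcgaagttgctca
The ChoRE was searched as CACGNG and CNCGTG with 5 bases of any kind between them, and the E-box as CACGTG on both strands, and each pattern is its own reverse complement. In Pklr the ChoRE match lay 170 to 154 bases before the start. In Ppp1r3c the E-box lay 104 to 99 bases before the start. Of 32851 such windows of 250 bases, 13 (0.0396%) held the ChoRE pattern and 1978 (6.02%) the E-box. RefSeq windows were at hand for 7 of the 9 listed genes, 11 windows in all, and the other 9 windows (of Gckr, Pfkl, Pfkfb1, Slc2a2, Pygl and the first Pklr start) held neither pattern. Gys2 and Ppp1r3b were not in this table. Other spellings of the ChoRE were not searched. Pklr was known beforehand to respond through ChREBP, so its match is not separate evidence. These matches describe letters and were not tested for binding. Which of the 2 Pklr starts the probe set reads is not given in the sources used here.

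Arrays of 1 group correlated across genes at 0.9851 to 0.994 outside the combined group and at 0.972 to 0.993 within it. Over the 5222 negative-control probe sets, the array median averaged 4.41 with filtered air, 4.50 with metformin, 4.44 with PM2.5 and 4.59 in the combined group, where mice 2 and 4 had the highest values, 4.79 and 4.69. Against filtered air it was higher with metformin and in the combined group (two-sided exact permutation test, p = 0.00794 each, the smallest these 5 against 5 arrays can give, and adjusted p = 0.0198 over 5 tests). In these 2 comparisons a fit with this signal as a covariate therefore cannot fully separate it from treatment. The tissue label was borne out by hepatocyte markers: 10 of 11 listed markers had a probe set, their mean log2 signals ran from 17.44 to 18.90, and the log2 of their summed signal lay between 21.54 and 21.66 in every group. Of 44 markers of other cells with a probe set, 14 lay at or below the mean negative-control median of 4.49. These included Itgax, Des, Krt19, Cd3e, Cd79a, Adipoq, Acta1 and Myh4. The log2 summed signal of 9 Kupffer cell and macrophage markers ran from 13.51 to 14.59 in filtered-air livers and from 13.02 to 13.50 in metformin livers. It ran from 13.95 to 14.70 in PM2.5 livers and from 10.99 to 14.71 in combined-group livers, where 3 of 8 tested markers fell against filtered air and 5 of 8 against PM2.5. The summed signal of 8 endothelial markers ran from 13.40 to 13.85 in filtered-air livers, 13.45 to 13.88 in PM2.5 livers and 12.49 to 13.62 in combined-group livers, where 1 of 8 fell against filtered air and 4 of 8 against PM2.5. That of 8 stellate cell markers ran from 15.58 to 16.12 in combined-group livers, wholly below the 16.21 to 16.54 of filtered-air livers. There 1 of 7 tested stellate markers rose and 2 fell. The sums add unlogged signals, so the strongest markers weigh most. The stellate sum is nearly all Dcn (mean 16.15, the next being Lrat at 10.50), and Clec4g (12.18) weighs most in the endothelial sum. In the combined group against metformin, 2 of 8 endothelial and 2 of 7 stellate markers rose and 1 of each fell. Of the 8 tested Kupffer cell and macrophage markers 0 rose there and 1 fell. Against filtered air, 1 of 8 endothelial markers rose with PM2.5 and 1 of 8 fell with metformin. The endothelial sum ran from 13.12 to 13.56 in metformin livers. The part of these marker differences in the results below was not tested. In such bulk tissue, fewer cells of a type and less RNA per cell cannot be told apart.

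**Figure D1:**
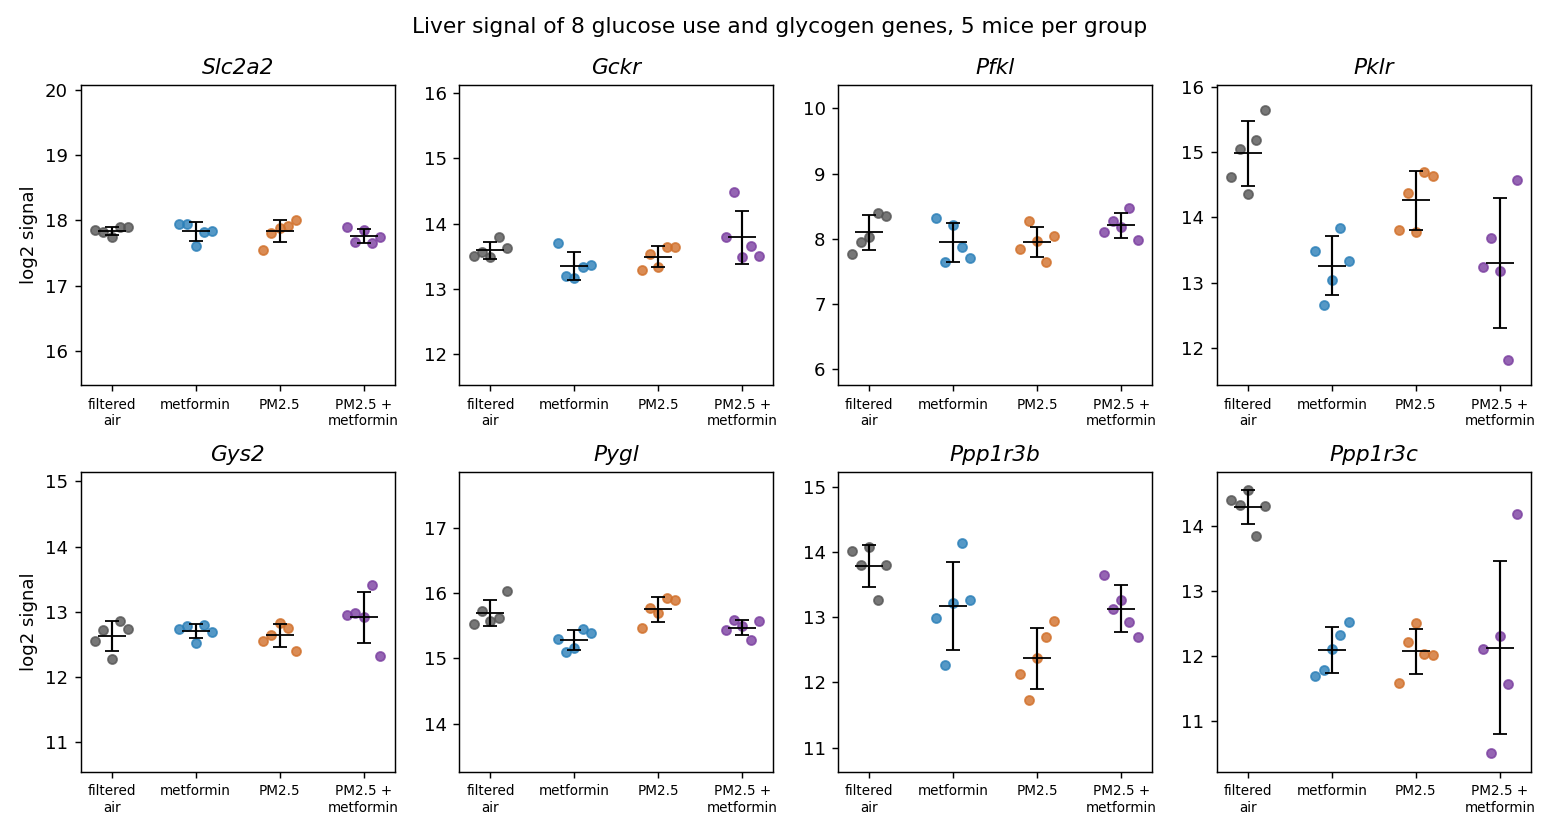
Log2 signal (vertical axis, the same span of values in every panel) of the 8 measured genes in each liver, by group (horizontal axis). Points are mice, and black bars are the mean and SD of 5 mice. Ppp1r3c lies at 13.84 to 14.54 in filtered air and below 12.6 in every PM2.5 and metformin liver, while Slc2a2 differs little between groups.

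Ppp1r3c, which encodes the glycogen-targeting subunit also called PTG, was lower in all treated groups than in filtered air. Its log2 signals were 14.39, 14.32, 14.54, 13.84 and 14.30 in filtered-air mice 1 to 5. They were 11.59, 12.21, 12.51, 12.03 and 12.02 with PM2.5, and 11.69, 11.79, 12.11, 12.32 and 12.52 with metformin. Neither set of treated mice overlapped the filtered-air mice. The combined group had 12.11, 10.51, 12.30, 11.57 and 14.17. There mouse 5 lay within the filtered-air range and the other 4 lay below it. Ppp1r3c fell by 2.20 ± 0.40 (log2 difference ± SE) with PM2.5, a 4.61-fold lower signal (adjusted p = 0.00351, limma, 5 mice per group). It fell by 2.19 ± 0.40 with metformin (adjusted p = 0.00434) and by 2.15 ± 0.40 in the combined group (adjusted p = 0.000411), each against the same 5 filtered-air arrays. Only 7 other tested genes were as low or lower with PM2.5 against filtered air by this difference, and 20 with metformin. The difference in the combined group was -2.65 without combined mouse 5, -1.42 without combined mice 2 and 4 (adjusted p = 0.00621), and -1.03 with the negative-control signal as a covariate, which did not pass (adjusted p = 0.0927).

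Ppp1r3b, which encodes the glycogen-targeting subunit known as GL in liver, was lowest with PM2.5. Its signals were 14.02, 13.80, 14.07, 13.27 and 13.80 in filtered air and 12.13, 11.73, 12.38, 12.69 and 12.94 with PM2.5, with no overlap. With metformin they were 12.99, 12.26, 13.21, 14.13 and 13.26, where mouse 4 lay above every filtered-air mouse. In the combined group they were 13.65, 13.12, 13.27, 12.93 and 12.70, overlapping filtered air. Ppp1r3b fell by 1.42 ± 0.27 with PM2.5, a 2.67-fold lower signal (adjusted p = 0.00524, limma). With metformin the difference was -0.62 ± 0.27 (adjusted p = 0.214) and in the combined group -0.66 ± 0.27 (adjusted p = 0.0644), and neither passed. The combined-group value passed without filtered-air mouse 4, metformin mouse 2, metformin mouse 4 or combined mouse 1 (adjusted p = 0.0352 to 0.0383), and in a fit of the compared arrays alone (adjusted p = 0.0247). From high to low the order of the group means was filtered air 13.79, metformin 13.17, combined 13.13 and PM2.5 12.37. No neighbours in this order differed past the threshold: the combined group minus PM2.5 was 0.76 (adjusted p = 0.0732, limma), and minus metformin -0.03 (95% interval -0.60 to 0.53).

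Pklr, the pyruvate kinase gene, was lowest in the 2 groups given metformin. Its signals were 14.62, 15.05, 14.36, 15.19 and 15.65 with filtered air, 13.80, 14.37, 13.78, 14.70 and 14.64 with PM2.5, and 13.48, 12.65, 13.04, 13.84 and 13.33 with metformin. The metformin mice all lay below the filtered-air mice, and 2 of the 5 PM2.5 mice did. In the combined group they were 13.24, 13.69, 13.18, 11.81 and 14.57, with mouse 4 the lowest of all 20 and mouse 5 inside the filtered-air range. Pklr fell by 1.71 ± 0.36 with metformin, 3.27-fold (adjusted p = 0.0129, limma), and by 1.68 ± 0.36 in the combined group, 3.20-fold (adjusted p = 0.00126). Both calls were lost with the negative-control covariate, at adjusted p = 0.0581 and 0.0855. With PM2.5 alone the difference of -0.72 ± 0.36 did not pass (adjusted p = 0.241, 95% interval -1.47 to 0.03). The means ran from 14.98 in filtered air through 14.26 with PM2.5 and 13.30 in the combined group to 13.26 with metformin. Of these neighbours, the combined group minus PM2.5 was -0.96 (adjusted p = 0.0875) and passed without combined mouse 5 (-1.28, adjusted p = 0.00947). The combined group minus metformin was 0.03 (95% interval -0.72 to 0.78).

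Pygl, the liver glycogen phosphorylase, was lower with metformin by a smaller amount that did not pass. Its signals were 15.52, 15.73, 15.57, 15.62 and 16.03 with filtered air and 15.30, 15.09, 15.15, 15.45 and 15.39 with metformin, and these groups did not overlap. The difference was -0.42 ± 0.13 (adjusted p = 0.0774, limma, 95% interval -0.68 to -0.15), and adjusted p over the alternatives ran from 0.0481 to 0.182. It passed with array weights and with the trend and robust options. With PM2.5 its values ran from 15.46 to 15.93 (median 15.77), 0.06 from filtered air (95% interval -0.21 to 0.32). In the combined group they ran from 15.28 to 15.59 (median 15.49).

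Gys2, the liver glycogen synthase, showed no difference past the threshold in any comparison. Its means were 12.63 ± 0.23 with filtered air, 12.71 ± 0.11 with metformin, 12.64 ± 0.17 with PM2.5 and 12.92 ± 0.39 in the combined group (SD, n = 5). The 95% interval for PM2.5 minus filtered air was -0.33 to 0.34 and for metformin minus filtered air -0.26 to 0.41. The combined-group signals were 12.95, 12.99, 12.93, 13.42 and 12.32, and 4 of these 5 mice lay above every filtered-air mouse. The difference from filtered air was 0.29 ± 0.16 (adjusted p = 0.171, limma). Without combined mouse 5, the lowest, it was 0.44 against filtered air (adjusted p = 0.0197) and 0.44 against PM2.5 (adjusted p = 0.0382), and both passed.

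The transporter gene Slc2a2 varied least. Its means lay between 17.76 and 17.84 in the 4 groups, close to the top of the deposited scale at 19.03. The 95% intervals of the 5 differences between groups lay within -0.31 to 0.22. Gckr, the regulator of glucose phosphorylation, had means of 13.59 ± 0.13 with filtered air, 13.35 ± 0.21 with metformin, 13.49 ± 0.16 with PM2.5 and 13.79 ± 0.41 in the combined group (SD, n = 5). Its combined-group signals were 13.79, 14.49, 13.49, 13.66 and 13.50, so that mouse 2 was the highest of all 20. The combined group minus metformin was 0.44 (adjusted p = 0.0707, limma) and passed without metformin mouse 1 (adjusted p = 0.0408) or combined mouse 5 (adjusted p = 0.0385). Pfkl, the phosphofructokinase gene, ran from 7.64 to 8.48 over all mice, around 8.36, the level that 95% of negative controls lie below on average, and 18 of 20 values lay below that level. None of its differences passed, the largest in size being 0.26 between the combined group and metformin (95% interval -0.08 to 0.60).

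**Figure D2:**
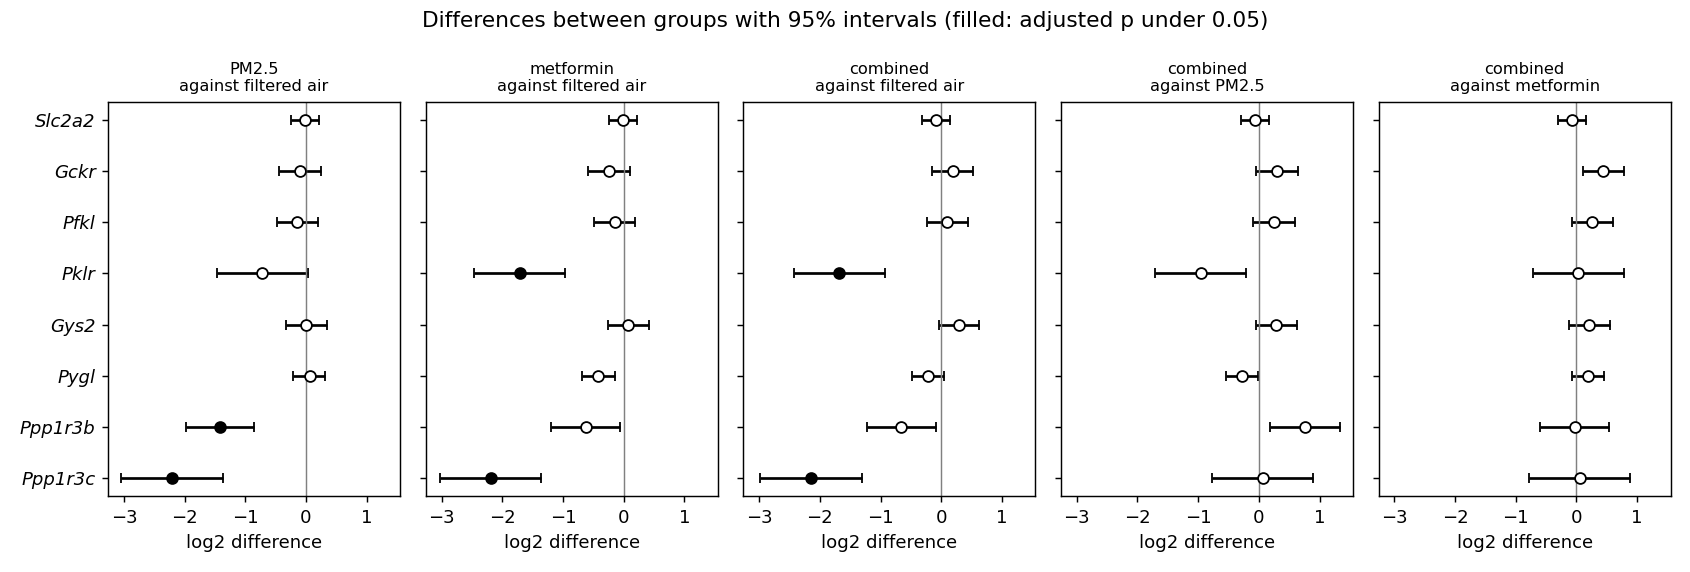
Log2 difference between groups (horizontal axis) for each gene (vertical axis) with its 95% interval from limma, in 5 comparisons. Filled points have an adjusted p under 0.05: Ppp1r3b and Ppp1r3c with PM2.5, and Pklr and Ppp1r3c with metformin and in the combined group, all lower than in filtered air.

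Counted together, 2 of the 8 genes fell with PM2.5 against filtered air, 0 rose and 6 did not pass, where 5.28% of all tested genes were called in either direction 2.72% as higher and 2.56% as lower. The median of the 8 differences was -0.12, beside 0.02 over all tested genes. Groups that do not overlap were found for the same 2 genes, Ppp1r3b and Ppp1r3c, against 3.44% of all tested genes with PM2.5 wholly lower, 3.58% wholly higher and 7.02% either way. With metformin 2 of 8 fell and 0 rose, where 3.2% of all genes were called, 1.29% as higher and 1.91% as lower. The median was -0.33, beside 0.00 over all genes, and 3 of 8 did not overlap (Pklr, Pygl and Ppp1r3c), all lower, where 3.6% of all genes were wholly lower, 3.22% wholly higher and 6.82% either way. In the combined group against filtered air 2 of 8 fell and 0 rose, where 35.4% of all genes were called, 18.9% as higher and 16.4% as lower, so that 2 of 8 is close to the background. There 0 of 8 members had groups that did not overlap, against 21% of all genes (11.9% wholly higher and 9.13% wholly lower). The comparisons against filtered air share its 5 arrays.

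Adding metformin under PM2.5 asks whether the drug altered these genes in exposed mice. In limma 0 of 8 passed in the combined group against PM2.5, 3 with an unadjusted p under 0.05 (Pklr, Pygl and Ppp1r3b), where 11.9% of all genes were called, 7.07% as higher and 4.79% as lower. None of the 8 had groups that did not overlap there, against 6.41% of all genes (4.49% wholly higher, 1.91% wholly lower). Array weights called 2 of 8, and leaving out combined mouse 5 called 3 (Pklr, Gys2 and Ppp1r3b). Against metformin alone 0 of 8 passed, 1 with an unadjusted p under 0.05 (Gckr), where 16.5% of all genes were called, 9.82% as higher and 6.72% as lower. Again 0 of 8 had groups that did not overlap, against 9.42% of all genes (5.6% wholly higher, 3.82% wholly lower). The interaction, the metformin difference under PM2.5 minus that without PM2.5, called 0 of 8 and 22 of all genes, 0.188% (0.162% as higher, 0.0256% as lower), and 3 members had an unadjusted p under 0.05 (Gckr, Ppp1r3b and Ppp1r3c). For Ppp1r3c, metformin made a difference of -2.19 without PM2.5 and of 0.06 under PM2.5, an interaction of 2.25 ± 0.57 (95% interval 1.07 to 3.43; adjusted p = 0.0944, limma). Only 8 other tested genes had an interaction as high. It passed with array weights (2.21, adjusted p = 0.0218), with the negative-control covariate (2.59, adjusted p = 0.0165), without combined mouse 2 (2.66, adjusted p = 0.0268) or combined mouse 5 (1.74, adjusted p = 0.021), and without combined mice 2 and 4 together (2.98, adjusted p = 0.00519). For Ppp1r3b the corresponding metformin differences were -0.62 and 0.76, an interaction of 1.38 ± 0.39 (adjusted p = 0.128), which passed without combined mouse 5 (1.49, adjusted p = 0.044). For Pklr they were -1.71 and -0.96, an interaction of 0.75 ± 0.51 (adjusted p = 0.564).

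The members did not all vary together from liver to liver. Among 28 pairs, Pklr and Pygl had the highest correlation over the 20 arrays, chosen here after the values were seen, with r = 0.81 and Spearman's rho = 0.85. It was r = 0.78 after each group's mean was subtracted and r = 0.78 without the 2 arrays farthest from the Pklr median. Pklr and Ppp1r3c gave r = 0.66, and 0.37 after the group means were subtracted. Ppp1r3b and Ppp1r3c gave r = 0.51, and 0.03 after the group means were subtracted. Gys2 and Ppp1r3c gave r = -0.46, and -0.59 after subtraction. These are descriptions over livers that share treatment groups and array background, and combined-group mice reach the extremes of several of these genes.

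**Figure D3:**
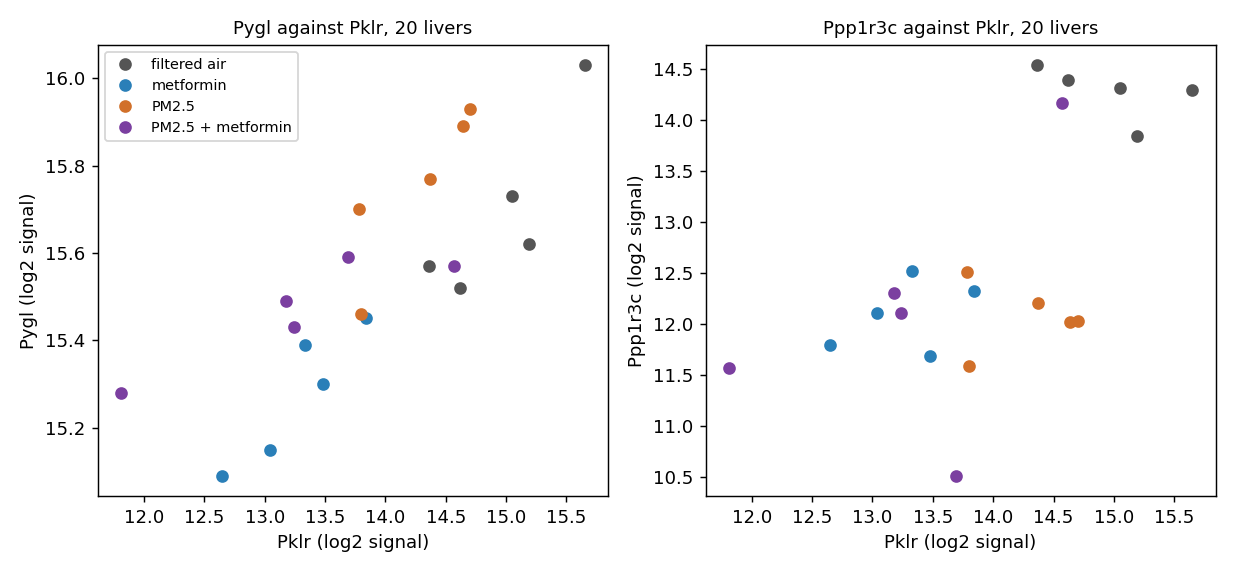
Log2 signal of Pygl (left, vertical axis) and of Ppp1r3c (right, vertical axis) against Pklr (horizontal axis) in 20 livers coloured by group. Pygl and Pklr rise together within groups (r = 0.78 after group means are subtracted), while Ppp1r3c separates filtered air from the PM2.5 and metformin livers.

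For each member the 3 other tested genes with the highest Pearson r over the 20 arrays were listed. For Pklr they were Gstp3 (0.94; 0.85 after group means were subtracted), Elovl6 (0.94; 0.85) and Pgd (0.93; 0.81). For Pygl they were Mrpl38 (0.91; 0.84), Gstm7 (0.90; 0.78) and Pgd (0.85; 0.83). For Ppp1r3c they were Nudt13 (0.90; 0.78), Slc66a2 (0.87; 0.69) and Aacs (0.86; 0.46). For Ppp1r3b they were Mid1ip1 (0.86; 0.70), Anks4b (0.86; 0.68) and Arfgap2 (0.83; 0.72). The other members had Tcf20 (0.86), Cfb (0.80) and Paxbp1 (0.80) for Gys2, and Gabbr2 (0.83), Tgm2 (0.83) and Slc6a6 (0.82) for Gckr. Slc2a2 had Abca8b (0.83), Pias1 (0.79) and Cr1l (0.74), and Pfkl had Rmnd5a (0.77), Ppp3cc (0.73) and Cdk5rap2 (0.71).

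Other genes of glucose uptake and glycolysis were listed with the members to set them in their pathway. Of 33 listed, 28 had a probe set and 22 were tested. Gpi1, Pfkfb2 and Eno1 were among those not analysed here. With PM2.5 against filtered air 1 of 22 rose and 1 fell, with a median of 0.01, where 5.28% of all tested genes were called. Slc2a1, the widely expressed glucose transporter GLUT1, rose from 8.65 ± 0.25 to 9.78 ± 0.50 (SD, n = 5), by 1.13 ± 0.25 (adjusted p = 0.0117, limma), and kept its call without each mouse in turn. Slc2a4, the muscle and fat transporter GLUT4, fell by 0.62 ± 0.17 (adjusted p = 0.033), but between means of 4.81 and 4.18, around the mean negative-control median of 4.49. With metformin 0 of 22 passed in limma, with a median of -0.04, where 3.2% of all tested genes were called. Against filtered air, 2 of 22 rose and 2 fell in the combined group, fewer than the 35.4% of all tested genes called there. Khk, the fructokinase gene, fell by 1.42 ± 0.23 against filtered air (adjusted p = 0.000125), by 1.09 against PM2.5 (adjusted p = 0.00519) and by 1.00 against metformin (adjusted p = 0.00639). The Khk difference from filtered air was -0.93 without combined mice 2 and 4 and -0.86 with the negative-control covariate, and passed in both (adjusted p = 0.000615 and 0.0322). Without combined mice 2 and 4 the other Khk calls were lost, at -0.60 against PM2.5 (adjusted p = 0.0505) and -0.51 against metformin (adjusted p = 0.0649). The covariate also ended the one against PM2.5 (-0.63, adjusted p = 0.207). Slc2a4 fell by 0.95 (adjusted p = 0.000241) to a mean of 3.86, below the negative-control median. Pfkm, the muscle phosphofructokinase gene, rose by 0.44 against filtered air (adjusted p = 0.0412) to a mean of 7.11, below the 95th percentile of the negative controls, and Slc2a1 rose by 0.70 (adjusted p = 0.034). Pfkm was also higher than with PM2.5 (0.65, adjusted p = 0.0136) and than with metformin (0.73, adjusted p = 0.00547). The Pfkm and Slc2a1 calls against filtered air were lost without any 1 of 6 mice (adjusted p = 0.0531 to 0.141), among them filtered-air mice 1 and 2 and combined mice 2 and 4. Both were also lost with the negative-control covariate and without combined mice 2 and 4 together. That of Pfkm was lost too with no filter, quantile normalization, median centring, array weights, the trend and robust options, and the compared arrays alone. The Slc2a4 call with PM2.5 was lost without filtered-air mouse 1, 2 or 4 or PM2.5 mouse 1, 2 or 5 (0.0582 to 0.1).

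Of 29 other glycogen genes, 27 had a probe set and 21 were tested; Gyg1 was among those not analysed here. With PM2.5 0 of 21 passed in limma (median 0.09), where 5.28% of all tested genes were called. With metformin 1 rose: Stbd1, a glycogen-binding protein, from 7.14 ± 0.31 to 8.16 ± 0.35 (SD, n = 5; 1.01 ± 0.19, adjusted p = 0.0048). The groups did not overlap, where 3.22% of all tested genes were wholly higher with metformin and 1.29% were called as higher. All 5 filtered-air mice and 3 of the 5 metformin mice lay below the 95th percentile of the negative controls. Stbd1 in the combined group was 0.88 lower than with metformin (adjusted p = 0.00424). Against filtered air 3 of 21 rose and 4 fell in the combined group, with a median of 0.13. Of all tested genes, 18.9% were called as higher there and 16.4% as lower, so these counts are close to the background. Ugp2, which makes UDP-glucose for glycogen synthesis, fell by 0.92 ± 0.15 (adjusted p = 0.000126). The branching enzyme gene Gbe1 fell by 0.60 (adjusted p = 0.0031). The phosphorylase kinase subunits Phkb and Phkg2 fell by 0.48 (adjusted p = 0.00829) and 0.58 (adjusted p = 0.0313). Gaa, the lysosomal glucosidase that digests glycogen, rose by 1.28 ± 0.22 (adjusted p = 0.000241). Pgm1, which interconverts glucose phosphates, rose by 0.66 (adjusted p = 0.000631), and Gsk3b, a kinase that inhibits glycogen synthase, by 0.71 (adjusted p = 0.00339). With the negative-control covariate the calls of Gbe1 (-0.26, adjusted p = 0.293), Gsk3b (0.34, adjusted p = 0.275), Pgm1 (0.39, adjusted p = 0.09), Phkb (-0.39, adjusted p = 0.159) and Phkg2 (-0.06, adjusted p = 0.879) were lost, while those of Ugp2 and Gaa were kept. Gbe1 was also lost without combined mice 2 and 4 (-0.38, adjusted p = 0.051). The Phkg2 call was lost without any 1 of 5 mice, filtered-air mice 1, 2 and 5 and combined mice 2 and 4 (adjusted p = 0.0539 to 0.115). Against PM2.5, 0 of 21 rose and 4 fell (Ugp2, Phkb, Phkg2 and Epm2a, the laforin gene, which is near background at a mean of 4.54), and against metformin 2 rose (Pgm1 and Gaa) and 5 fell (Ugp2, Phkb, Phkg2, Ppp1cb, a catalytic subunit of protein phosphatase 1, and Stbd1). Of all tested genes, 11.9% were called against PM2.5 and 16.5% against metformin. Each of the 4 calls against PM2.5, and those of Ugp2, Pgm1, Phkb and Ppp1cb against metformin, were lost without combined mouse 2 or combined mouse 4 (adjusted p = 0.0511 to 0.125 over all single mice whose omission ended one of them).

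Regulators of these genes and readouts of glucose or hormone signalling formed another list of 19, of which 15 were tested; Srebf1 and Tkt were among those not analysed here. With PM2.5 5 of 15 rose and 1 fell, with a median of 0.40, where 2.72% of all tested genes were called as higher and 2.56% as lower. With metformin 2 rose and 2 fell (median 0.34), where 1.29% of all tested genes were called as higher and 1.91% as lower. In the combined group against filtered air 8 rose and 2 fell (median 0.59), where 18.9% were called as higher and 16.4% as lower. Mlxipl, the ChREBP gene, had means of 12.56 with filtered air, 11.75 with PM2.5, 11.44 with metformin and 11.76 in the combined group. It fell by 1.12 ± 0.25 with metformin (adjusted p = 0.0172, limma) and by 0.80 in the combined group (adjusted p = 0.0161), while -0.81 with PM2.5 did not pass (adjusted p = 0.0583). Its partner gene Mlx fell by 0.59 with PM2.5 (adjusted p = 0.0248), 0.66 with metformin (adjusted p = 0.0174) and 1.01 in the combined group (adjusted p = 5.42e-05). Txnip, a thioredoxin-binding protein gene known as induced by glucose through ChREBP, rose by 1.93 ± 0.34 with PM2.5 (adjusted p = 0.00309), 1.40 ± 0.34 with metformin (adjusted p = 0.0282) and 1.24 ± 0.34 in the combined group (adjusted p = 0.00762). Arrdc4, its relative, passed only for the combined group against metformin (0.46, adjusted p = 0.0493). Pck1, the gluconeogenic enzyme gene, rose by 1.26, 1.27 and 1.48 in these 3 comparisons. The insulin receptor Insr, its substrate Irs2 and the transcription factor Foxo1 rose with PM2.5 (0.64, 1.06 and 0.80) and in the combined group (1.45, 0.89 and 1.48), and Hnf4a (0.59), Onecut1 (0.74) and the glucagon receptor Gcgr (0.62) rose in the combined group only at this threshold, which was not tested as a difference between comparisons. Irs2 lay below the 95th percentile of the negative controls in 5 filtered-air, 5 PM2.5 and 4 combined-group mice. Foxo1 did so in 5 filtered-air, 4 PM2.5 and 0 combined-group mice, and Onecut1 in 5 filtered-air and 4 combined-group mice. The combined-group call of Irs2 was lost in a fit of the compared arrays alone (adjusted p = 0.0507, limma). With the negative-control covariate the combined-group calls of Mlxipl (adjusted p = 0.0656), Hnf4a (adjusted p = 0.0721), Gcgr (adjusted p = 0.0938) and Onecut1 (adjusted p = 0.145) against filtered air were lost, and so was that of Mlx with metformin (adjusted p = 0.0782). Against PM2.5, 2 of 15 rose in the combined group and 0 fell: Insr by 0.81 (adjusted p = 0.00599) and Foxo1 by 0.68 (adjusted p = 0.0465), the latter lost without any 1 of 13 mice (adjusted p = 0.0519 to 0.137). Against metformin 3 rose and 0 fell: Insr by 0.93 (adjusted p = 0.00189), Foxo1 by 0.82 (adjusted p = 0.015) and Arrdc4. Of all tested genes, 7.07% were called as higher against PM2.5 and 9.82% against metformin.

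Several of these list calls crossed the threshold when 1 mouse was left out. Such a loss can come with little change in the difference. For Insr with PM2.5 the difference ran from 0.56 to 0.73 over all alternatives, beside 0.64 with all mice. The PM2.5 calls of Mlx, Foxo1, Irs2 and Insr were each lost without filtered-air mouse 1, PM2.5 mouse 2 or PM2.5 mouse 5, and some without others (adjusted p = 0.0523 to 0.122). With metformin, Mlxipl was lost without metformin mouse 3 (adjusted p = 0.0568), Mlx without filtered-air mouse 1 (adjusted p = 0.056) and Txnip without any 1 of 6 mice, filtered-air mice 1, 2, 3 and 5 and metformin mice 3 and 5 (adjusted p = 0.0565 to 0.0895). Mlxipl with PM2.5 passed without filtered-air mouse 2, metformin mouse 3, PM2.5 mouse 4 or combined mouse 2 (adjusted p = 0.0349 to 0.0496). Onecut1 was lost without any 1 of 7 mice (adjusted p = 0.0584 to 0.113), filtered-air mice 1, 2, 4 and 5 and combined mice 3, 4 and 5. Arrdc4 was lost without any 1 of 13 mice (adjusted p = 0.0511 to 0.13). Of the list calls in the 3 comparisons with filtered air, 3 of 8 with PM2.5, 2 of 5 with metformin and 17 of 21 in the combined group were kept without each mouse in turn. Under all alternatives run, 3 of 8, 2 of 5 and 9 of 21 were kept, and 0 of 8 against PM2.5 and 2 of 12 against metformin. The covariate ended 11 of the 21 combined-group calls against filtered air, 8 of 8 against PM2.5 and 6 of 12 against metformin. Leaving out combined mice 2 and 4 ended 5 of 21, 8 of 8 and 10 of 12.

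**Figure D4:**
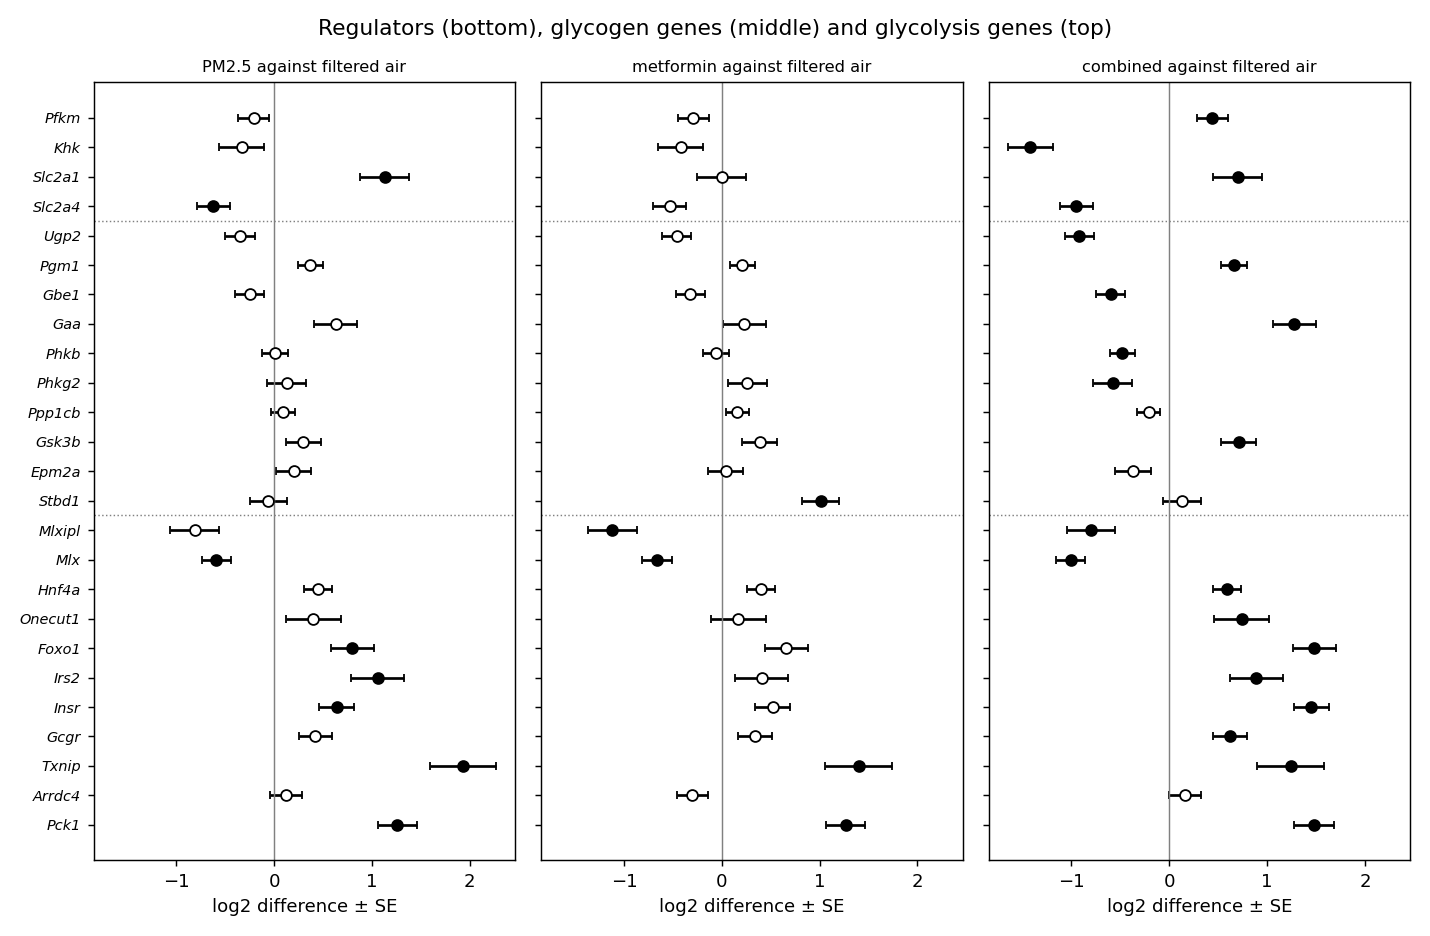
Log2 difference from filtered air with its SE (horizontal axis) for list genes that passed in at least 1 comparison or were set to be named (vertical axis), by treated group. Filled points have an adjusted p under 0.05. Mlx is lower and Txnip and Pck1 are higher in all 3 comparisons, and more genes are filled in the combined group, where 35.4% of all tested genes were called.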

How the data were processed

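Per the labels, the livers were read on single-channel Affymetrix arrays, and per the submitters' processing notes the authors used Affymetrix Expression Console, with no version or summary method given in the sources used here. The deposited values are log2 signals between 1.55 and 19.03, 1 column per mouse; no scanner files were used here. The design text names another array type than the probe set identifiers belong to. Genes were taken from the platform annotation: of 22206 non-control probe sets, 19572 had 1 gene, 0 several and 2634 none. The probe set with the highest mean was used where a gene had several (55 genes); every member had 1. Only genes whose mean exceeded log2 4.09, the 40th percentile of gene means, were tested.

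All 20 arrays were fitted as 4 group means with limma 3.58.1 in R 4.3.3 (lmFit and eBayes, two-sided, 16 residual and 5.66 prior degrees of freedom). Rose and fell mean a Benjamini-Hochberg adjusted p under 0.05 over 11703 genes. Intervals are 95% confidence intervals of a difference, from the variance pooled over the 4 groups and moderated by eBayes. They do not give the range of single mice, and the number of arrays limits precision. The fit was tested on simulated data. The members and lists were chosen with earlier results of these data known. Beyond the members, the naming rule took list genes that passed in at least 1 comparison, Mlxipl, Srebf1 and Txnip among others, and the 3 genes most correlated with each member. Alternatives were filters, scaling, probe set averaging, array weights, eBayes options, compared arrays alone, a negative-control covariate and leaving out mice. A filter at the 40th percentile of probe sets was chosen after seeing the data. Some listed genes are not reported here.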

Additional observations from a re-analysis of the deposited data

Results flagged for a closer look

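Of 132 groups of 5 mice examined (the 8 members and 25 list genes in 4 groups), 9 had 1 mouse far from the other 4 by Dixon's criterion, where chance gives about 5%. None of these was a member. Ppp1cb was set apart in 3 groups, with the lowest value in filtered-air mouse 1 at 13.33 and metformin mouse 2 at 13.50 and the highest in combined mouse 5 at 13.59. Khk was highest in filtered-air mouse 5 at 17.99, and Gsk3b in filtered-air mouse 4 at 12.66. Phkg2 was lowest in PM2.5 mouse 5 at 10.86, and Onecut1 in PM2.5 mouse 4 at 6.73. Hnf4a was highest in metformin mouse 3 at 13.51, and Foxo1 in metformin mouse 5 at 8.42.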

How the results depend on the processing

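Of 6 member calls, 3 were kept under all alternatives run (Ppp1r3b and Ppp1r3c with PM2.5, Ppp1r3c with metformin). The other 3, Pklr with metformin and Pklr and Ppp1r3c in the combined group, were lost with the negative-control covariate and kept under all other alternatives. The covariate itself was higher in these groups than in filtered air, so covariate and treatment cannot be fully told apart there. Of 42 member differences that did not pass, 33 passed under none. No called difference reversed. The members called, 2 in each comparison with filtered air, were 1 with metformin and 0 in the combined group with the covariate. The interaction, 0 members, called 1 with array weights, the covariate, or without combined mice 2 and 4. Against PM2.5 array weights called 2 in place of 0.

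Without each mouse in turn the members called stayed at 2 with PM2.5 and with metformin, and ran from 2 to 3 in the combined group, 0 to 3 against PM2.5, 0 to 1 against metformin and 0 to 2 for the interaction. The genes called ran from 212 to 772 (618 with all mice) with PM2.5, 159 to 489 (375) with metformin, 3404 to 4347 (4138) in the combined group, 642 to 2145 (1388) against PM2.5, 1146 to 2415 (1935) against metformin and 7 to 292 (22) for the interaction. The highest counts were without combined mouse 5. The lowest were without PM2.5 mouse 2, metformin mouse 3 and, for the 3 combined-group comparisons, combined mouse 4; for the interaction they were without metformin mouse 3, PM2.5 mouse 1 or PM2.5 mouse 2.

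Array weights called 1374 genes with PM2.5, 861 with metformin and 110 for the interaction. The covariate called 148 with metformin, 1063 in the combined group, 79 against PM2.5, 1007 against metformin and 44 for the interaction. The compared arrays alone called 523 against PM2.5 and 1038 against metformin. Without combined mice 2 and 4 together, 943 were called with PM2.5, 2567 in the combined group, 208 against PM2.5, 509 against metformin and 10 for the interaction. Quantile scaling moved the share of interaction calls that were higher from 86.4% to 76.2%. It moved that share from 59.4% to 50.3% in the combined group against metformin, and from 40.3% to 43% with metformin. With PM2.5 against filtered air, median centring moved the share from 51.5% to 42.3%. The cause of these moves was not tested. Pfkl had group means from 7.95 to 8.21, over the negative-control median of 4.49 but short of 8.36, the 95% level of these controls. Stbd1, at means of 7.14 with filtered air and 8.16 with metformin, was called between these groups. Whether background signal hid a Pfkl difference was not tested. No paired analysis was possible because the labels give no replicate number shared between groups.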
